A study of Mus musculus with 18 samples.

Results

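A group of 9 genes typical of B cells and of the plasma cells that develop from them was followed in the dorsal spinal cord of mice carrying 3 different viral vectors. The genes were Cd79a, Cd79b and Ms4a1, which encode B cell surface proteins, Jchain, Mzb1, Derl3 and Xbp1, which serve antibody secretion in plasma cells, and Pou2af1 and Tnfrsf17, a regulator and a receptor of these cells. They were taken by name from expression tables in which 34193 loci with 18380 gene names could be compared. The 9 genes were chosen from the FPKM values described here, so their differences between groups are descriptions. FPKM counts sequenced fragments per kilobase of transcript, scaled to the number of mapped fragments, so levels of different genes can be compared on it.

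RNA was taken from the dorsal part of lumbar segments L3 to L5 of C57BL/6N mice aged 3 months, with 3 mice in each of 6 groups and 18 mice in all. Every mouse had received a recombinant adeno-associated virus into the dorsal horn on both sides. The virus delivered LacZ (beta-galactosidase, the control protein), wild-type histone deacetylase 4 (HDAC4 wt), or HDAC4 3SA, a mutant lacking phosphorylation sites needed for nuclear export, which therefore stays in the nucleus. For each vector, one group had complete Freund's adjuvant (CFA), an inflammatory stimulus, injected into the hindpaw 24 h earlier, and the other had saline. No group was without a vector. The promoter driving the transgenes, and how male and female mice were spread over the groups, are not given in the sources used here. The tables hold 1 value per group, computed by the authors over the 3 mice, so no spread between mice is shown and no test across them was run here. The authors' own test statistics for CFA against saline within each vector were not used. Each vector was normalised in its own table, and vector and table cannot be told apart in the comparisons of levels between vectors.

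B cells recognise antigen through a membrane immunoglobulin whose signal is passed on by CD79A and CD79B. When activated B cells become plasma cells they lose CD20, the product of Ms4a1, and turn to the bulk secretion of antibody. XBP1, a transcription factor of the unfolded protein response, expands the endoplasmic reticulum for that task, DERL3 helps to remove misfolded proteins from it, MZB1 assists antibody assembly, and the J chain links IgA and IgM into polymers. Lymphocytes are sparse in healthy spinal cord tissue, and in bulk tissue fewer cells of a type and less RNA per cell cannot be told apart.

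Promoters of 3 members with the largest contrast in function, the degradation factor Derl3, the J chain and the receptor chain Cd79a, are shown because the secretory programme is known to act through short promoter elements. Each runs from 250 bases before to 50 bases after the RefSeq transcription start (GRCm38.p6), 5′ to 3′ in the direction of the gene, and capitals mark matches to the XBP1-related motifs described next. Derl3 lies on the plus strand at chr10:75893148-75893447, Jchain on the minus strand at chr5:88527848-88528147 and Cd79a on the plus strand at chr7:24897247-24897546.
Derl3: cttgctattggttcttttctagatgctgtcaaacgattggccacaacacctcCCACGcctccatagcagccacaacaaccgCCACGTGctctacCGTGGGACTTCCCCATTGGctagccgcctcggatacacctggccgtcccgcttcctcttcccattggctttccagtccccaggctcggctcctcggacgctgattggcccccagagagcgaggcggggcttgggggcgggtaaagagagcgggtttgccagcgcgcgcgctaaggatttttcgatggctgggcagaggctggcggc
Jchain: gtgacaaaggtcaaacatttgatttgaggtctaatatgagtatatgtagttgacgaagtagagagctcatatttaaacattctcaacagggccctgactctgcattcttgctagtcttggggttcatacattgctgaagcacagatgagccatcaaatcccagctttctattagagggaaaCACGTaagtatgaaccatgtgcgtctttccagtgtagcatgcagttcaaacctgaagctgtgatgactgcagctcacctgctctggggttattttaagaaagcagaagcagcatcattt
Cd79a: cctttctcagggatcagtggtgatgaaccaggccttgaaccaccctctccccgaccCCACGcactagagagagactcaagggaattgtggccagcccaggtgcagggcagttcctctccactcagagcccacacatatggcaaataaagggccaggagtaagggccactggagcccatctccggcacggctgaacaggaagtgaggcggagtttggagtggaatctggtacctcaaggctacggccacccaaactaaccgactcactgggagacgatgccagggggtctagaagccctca

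The motifs were searched on both strands of the 6 members with a promoter in the table used, Jchain, Cd79a, Pou2af1, Derl3, Xbp1 and Tnfrsf17. The entries for Cd79b, Ms4a1 and Mzb1 were not found. The endoplasmic reticulum stress element, CCAAT and CCACG separated by 9 bases of any kind, occurred in 39 of 32851 mouse promoters of this length (0.119%). Among the members it was found in Derl3, on the minus strand from base -156 to base -138 relative to the start. Derl3 also held the element's part CCACG, which is in 32.8% of promoters, at 3 places, of which 1 lies within the full element. The core ACGTG, present in 19.6% of promoters, overlaps another of the CCACG matches of Derl3 and was found once in Jchain (bases -69 to -65) and once in Pou2af1. Cd79a held a single CCACG, Pou2af1 held 3, and Xbp1 and Tnfrsf17 held neither motif. The octamer ATGCAAAT, the site of the OCT factors for which POU2AF1 is a co-activator, is in 1.74% of promoters and was in 0 of the 6. Its first 7 bases, ATGCAAA (4.63%), and the EBF-type sequence CCCNNGGG (13.7%) were also in 0 of the 6. A match describes letters in this window and says nothing about binding.

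Against this background the strongest contrast was between vectors. In saline-injected mice, 8 of the 9 members were at least 2-fold higher with HDAC4 wt than with LacZ, on a log2 scale with 0.1 FPKM added to both values. Over all 33972 loci with a mean of at least 0.1 FPKM over the 6 groups, 8.3% were that much higher. With HDAC4 3SA 8 of 9 were also at least 2-fold higher than with LacZ, beside 7.04% of all loci. In CFA-injected mice the count was 7 of 9 for each HDAC4 vector, beside 8.19% of loci for HDAC4 wt and 9.68% for HDAC4 3SA. These shares are given as background only, since the members were chosen from these levels. The 4 ratios rest on the same 2 LacZ groups. All 9 members passed the minimum level, but Mzb1 and Pou2af1 were below 0.1 FPKM in LacZ saline mice and passed through the HDAC4 groups.

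Jchain had the widest range of the members. Its level was 0.205 FPKM in LacZ saline, 0.289 in LacZ CFA, 262 in HDAC4 wt saline, 282 in HDAC4 wt CFA, 167 in HDAC4 3SA saline and 227 FPKM in HDAC4 3SA CFA. All 4 HDAC4 groups thus lay far above both LacZ groups, with ratios to the LacZ group of the same treatment of 1283 and 977 for HDAC4 wt and of 815 and 787 for HDAC4 3SA, saline and CFA respectively. By level, Jchain ranked 29368 among the 34193 loci in LacZ saline mice and 488 in HDAC4 3SA saline mice. In the comparison of HDAC4 wt with LacZ under saline, 56 of 33972 loci had a larger log2 difference. The locus, chr5:88519790-88527994 on the minus strand (mm10), holds no other annotated gene.

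**Figure D1:**
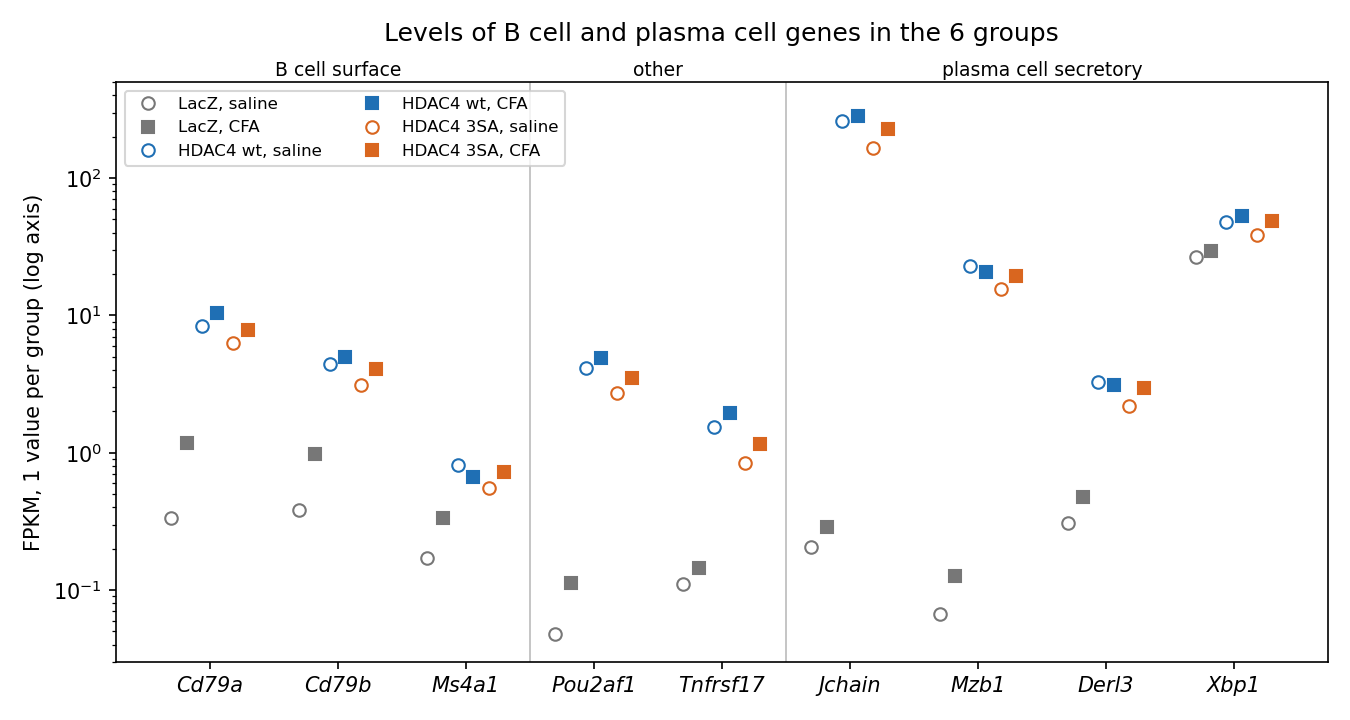
Level of each member in FPKM (log axis), with 1 point per group, open circles for saline and filled squares for CFA. For every member the 4 HDAC4 points lie above both LacZ points, by most for Jchain (167 to 282 against 0.205 and 0.289 FPKM) and by least for Xbp1 (38.8 to 53.2 against 26.8 and 29.7 FPKM).

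Mzb1, the chaperone-like partner of immunoglobulin in the endoplasmic reticulum, stood at 7.32% to 9.30% of the Jchain level in the HDAC4 groups. Its FPKM was 0.0666 in LacZ saline, 0.127 in LacZ CFA, 23.1 in HDAC4 wt saline, 20.7 in HDAC4 wt CFA, 15.5 in HDAC4 3SA saline and 19.3 in HDAC4 3SA CFA. The ratio to LacZ under saline was 347 for HDAC4 wt and 233 for HDAC4 3SA, against a LacZ value that is close to 0. The Mzb1 locus lies on chromosome 18, at chr18:35647262-35649528 on the minus strand, and overlaps the annotated gene SPATA24.

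In the HDAC4 groups Derl3 was lower still, and its contrast with LacZ was smaller. In both LacZ groups it was higher than Jchain and Mzb1. It stood at 0.310 FPKM in LacZ saline, 0.474 in LacZ CFA, 3.30 in HDAC4 wt saline, 3.10 in HDAC4 wt CFA, 2.21 in HDAC4 3SA saline and 2.98 in HDAC4 3SA CFA. Under saline this was 10.6-fold higher with HDAC4 wt and 7.12-fold higher with HDAC4 3SA than with LacZ. The name occurs in 2 rows over the same locus, chr10:75893365-75922535, which also spans Smarcb1. The row with the higher mean was used (2.06 against 1.24 FPKM over the 6 groups), and its separation from the neighbour is uncertain.

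Xbp1 differed from the other secretory members in that LacZ tissue already held it at a high level. Its 6 values were 26.8 FPKM in LacZ saline, 29.7 in LacZ CFA, 48.2 in HDAC4 wt saline, 53.2 in HDAC4 wt CFA, 38.8 in HDAC4 3SA saline and 48.7 in HDAC4 3SA CFA. The ratios of HDAC4 to LacZ groups were 1.80 and 1.79 for HDAC4 wt and 1.45 and 1.64 for HDAC4 3SA, and Xbp1 was the member that stayed under 2-fold in all 4 of these comparisons. Of its 3 rows, the one used (chr11:5520628-5526126, plus strand) had a mean of 40.9 FPKM, and the other rows 4.73 and 0.277 FPKM. With the 3 rows summed, Xbp1 passed 2-fold in HDAC4 wt CFA against LacZ CFA (log2 ratio 1.03 in place of 0.84).

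Among the surface genes, Cd79a, whose product signals for the B cell receptor, was the highest in every group except LacZ saline, where Cd79b was higher. It was at 0.333 FPKM in LacZ saline, 1.18 in LacZ CFA, 8.42 in HDAC4 wt saline, 10.4 in HDAC4 wt CFA, 6.27 in HDAC4 3SA saline and 7.78 in HDAC4 3SA CFA (chr7:24897381-24901942, plus strand). Its partner Cd79b measured 0.384, 0.978, 4.45, 5.01, 3.11 and 4.11 FPKM in the same order (chr11:106311341-106314588, minus strand). Under saline the ratios to LacZ were 25.3 for Cd79a and 11.6 for Cd79b with HDAC4 wt, and 18.9 and 8.10 with HDAC4 3SA. Both chains had the same order of groups, with HDAC4 wt CFA highest and LacZ saline lowest.

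Ms4a1, which encodes CD20 and marks B cells before the plasma cell stage, differed least among the surface genes. Its level was 0.170 FPKM in LacZ saline, 0.334 in LacZ CFA, 0.810 in HDAC4 wt saline, 0.664 in HDAC4 wt CFA, 0.550 in HDAC4 3SA saline and 0.726 in HDAC4 3SA CFA. The ratio to LacZ was 4.77 and 3.24 under saline for HDAC4 wt and HDAC4 3SA, and 1.99 and 2.18 under CFA. On the log2 scale with 0.1 FPKM added, the CFA values were 0.82 and 0.93, short of 2-fold, although with 0.01 FPKM added the HDAC4 3SA value was 1.10, past 2-fold. With 1 FPKM added, the saline values also fell short, at 0.63 and 0.41 in place of 1.75 and 1.27. The Ms4a1 locus (chr19:11250128-11266166, minus strand) overlaps the annotated gene 4930526L06Rik, and whether strand was used in counting is not given in the sources used here.

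The remaining members lay between these. Pou2af1, the lymphocyte co-activator, was at 0.0482 FPKM in LacZ saline, 0.113 in LacZ CFA, 4.14 in HDAC4 wt saline, 4.88 in HDAC4 wt CFA, 2.73 in HDAC4 3SA saline and 3.53 in HDAC4 3SA CFA, so that the saline ratios to LacZ were 85.9 and 56.5. Its locus is chr9:51213539-51240082 on the plus strand and contains the gene model Gm47828. Tnfrsf17 encodes BCMA, a receptor that supports plasma cell survival, and its values were 0.111, 0.144, 1.53, 1.95, 0.837 and 1.16 FPKM in the same order (chr16:11313814-11320161, plus strand). Its saline ratios to LacZ were 13.8 for HDAC4 wt and 7.55 for HDAC4 3SA. With 1 FPKM added, Tnfrsf17 no longer reached 2-fold for HDAC4 3SA against LacZ (log2 ratio 0.73 in place of 2.15 under saline, and 0.91 in place of 2.37 under CFA).

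**Figure D2:**
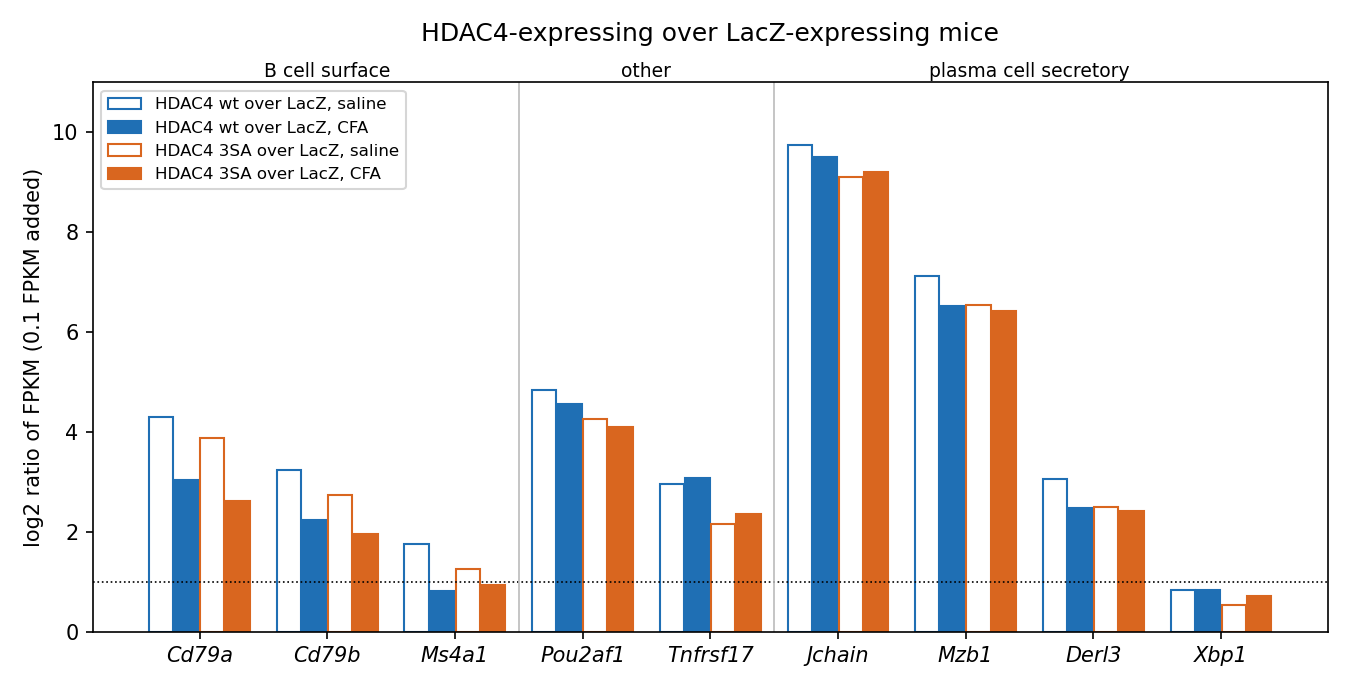
Log2 ratio of each HDAC4 group to the LacZ group of the same treatment, with 0.1 FPKM added to both. Bars are single ratios of group values, open for saline and filled for CFA, and the dotted line marks 2-fold. Jchain (9.10 to 9.75) and Mzb1 (6.42 to 7.12) stand highest, while Xbp1 (0.53 to 0.84) stays under the line.

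The surface and secretory sets overlapped in how far each HDAC4 vector differed from LacZ under saline, with Jchain and Mzb1 above all 3 surface genes, Derl3 between Ms4a1 and Cd79b, and Xbp1 below all 3. In saline-injected mice the median log2 ratio of HDAC4 wt to LacZ was 3.23 for the 3 surface genes and 5.09 for the 4 secretory genes. For HDAC4 3SA the medians were 2.73 and 4.52. The secretory median depended on Xbp1, and without it was 7.12 for HDAC4 wt and 6.55 for HDAC4 3SA. Within the secretory genes the values spread from Xbp1 to Jchain (0.84 to 9.75 for HDAC4 wt), a range that encloses those of all 3 surface genes. The median over all loci was 0.02 in both comparisons.

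Because the sets were measured in the same libraries, their balance can be read within each group. The sum of Jchain, Mzb1 and Derl3 was 0.655 times the sum of the 3 surface genes in LacZ saline and 0.358 times in LacZ CFA. In the HDAC4 groups it was 21.1 times the surface sum (HDAC4 wt saline), 19.1 times (HDAC4 wt CFA), 18.6 times (HDAC4 3SA saline) and 19.8 times (HDAC4 3SA CFA). Without Xbp1, the surface sum was thus the larger in both LacZ groups and the secretory sum in all 4 HDAC4 groups. This rests on low LacZ levels and largely on Jchain. In LacZ saline the secretory sum was 0.581 FPKM, of which Derl3 gave 0.310, and in HDAC4 wt saline Jchain gave 262 of 289 FPKM. With Xbp1 included the LacZ direction turned, since the secretory sum was then 27.4 FPKM in LacZ saline and 30.6 in LacZ CFA, against surface sums of 0.887 and 2.49 FPKM. Jchain per Cd79a, 0.615 and 0.245 in the LacZ groups, lay between 26.6 and 31.2 in the HDAC4 groups. Jchain per Igkc, the kappa light chain constant gene, was 1.74 and 1.08 with LacZ and between 0.589 and 0.632 with HDAC4. Cd79a and Cd79b, which act as a pair, had ratios of 0.866 and 1.20 with LacZ and of 1.89 to 2.06 with HDAC4.

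**Figure D3:**
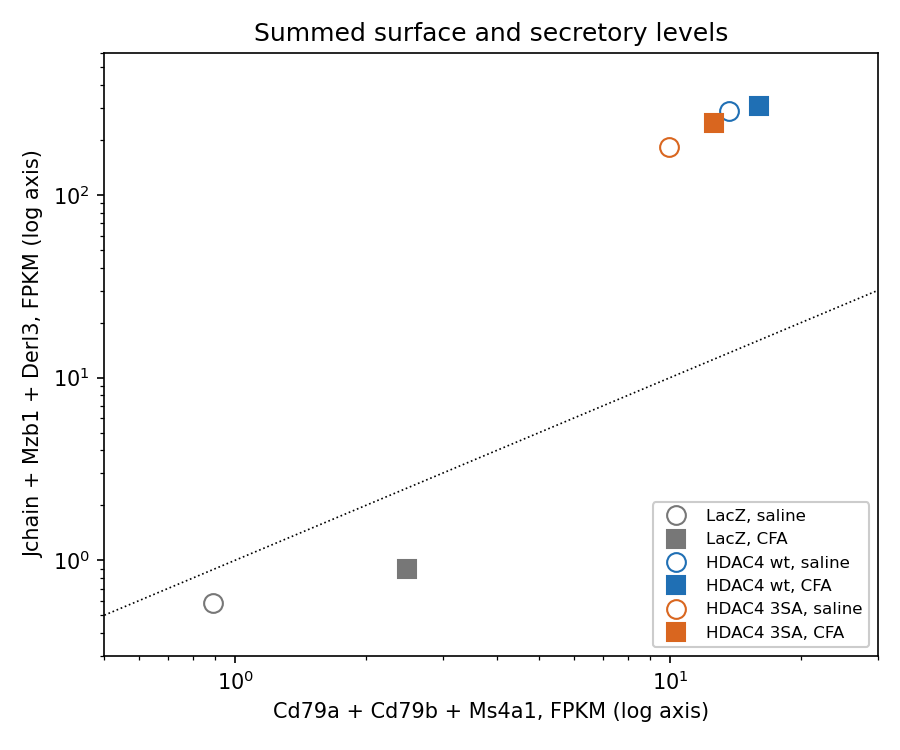
Summed level of Jchain, Mzb1 and Derl3 against the summed level of Cd79a, Cd79b and Ms4a1 in each of the 6 groups, both in FPKM on log axes, with the dotted line marking equal sums. The LacZ groups lie below the line (0.581 against 0.887 and 0.890 against 2.49 FPKM) and the HDAC4 groups far above it (184 to 306 against 9.94 to 16.0 FPKM). Xbp1 is left out of the secretory sum, and with it the LacZ sums would be 27.4 and 30.6 FPKM, above the line.

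The HDAC4 vectors differed from each other much less. In saline-injected mice all 9 members were lower with HDAC4 3SA than with HDAC4 wt, with ratios from 0.546 (Tnfrsf17) to 0.806 (Xbp1) and 0.635 for Jchain. None of the 9 was at least 2-fold lower, beside 2.61% of all loci. In CFA-injected mice 8 of 9 were lower, from 0.592 for Tnfrsf17 to 0.959 for Derl3, and Ms4a1 was 1.09 times as high, with 0 of 9 at least 2-fold lower beside 3.1% of loci. The median log2 difference under saline was -0.49 for the surface genes and -0.56 for the secretory genes, and under CFA -0.28 and -0.11. Without replicate values it cannot be said whether differences of this size exceed the spread between mice.

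The comparison the experiment was built on, CFA against saline within each vector, gave smaller values. In LacZ mice all 9 members were higher with CFA, and 2 of 9 were at least 2-fold higher, beside 1.93% of all loci. These were Cd79a, from 0.333 to 1.18 FPKM (log2 ratio 1.56), and Cd79b, from 0.384 to 0.978 FPKM (1.16). Ms4a1 followed at 0.68, Pou2af1 at 0.52, Derl3 at 0.49, Mzb1 at 0.45, Jchain at 0.35, Tnfrsf17 at 0.21 and Xbp1 at 0.15. The median was 1.16 for the surface genes and 0.40 for the secretory genes, and -0.001 over all loci. Both calls depend on low levels, since with 1 FPKM added Cd79a came to 0.71 and Cd79b to 0.52. With 0.01 FPKM added, Pou2af1 reached 1.07.

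In HDAC4 wt mice, where the starting levels were higher, 0 of 9 members passed 2-fold in either direction, beside 3.22% of loci higher and 2.43% lower. The 6 members that were higher with CFA ranged from a log2 ratio of 0.10 for Jchain to 0.33 for Tnfrsf17. Ms4a1 (-0.25), Mzb1 (-0.16) and Derl3 (-0.09) were lower. With the 2 rows of Derl3 summed its direction turned, to 0.34, and with the rows of every name summed the secretory median was 0.17. The median was 0.17 for the surface genes and 0.01 for the secretory genes, or -0.09 for the latter without Xbp1. In HDAC4 3SA mice all 9 members were higher with CFA, by 1.24-fold (Cd79a) to 1.38-fold (Tnfrsf17), and 0 of 9 were at least 2-fold higher, beside 4.31% of loci. There the surface median was 0.35 and the secretory median 0.37, and the members lay within 0.31 to 0.45 on the log2 scale. Whether the change in surface genes differed between LacZ and HDAC4 mice could not be tested with 1 value per group.

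**Figure D4:**
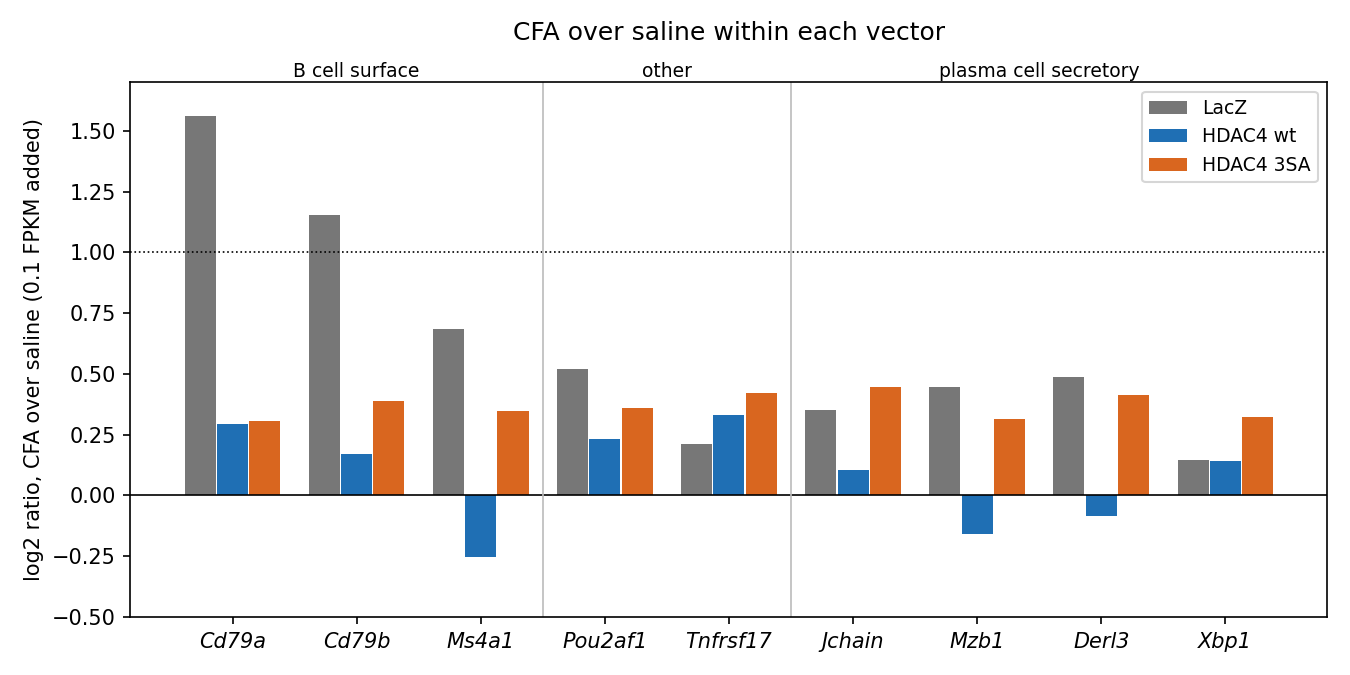
Log2 ratio of CFA to saline for each member within each vector, with 0.1 FPKM added to both values. Bars are single ratios of group values and the dotted line marks 2-fold. Cd79a (1.56) and Cd79b (1.16) in LacZ mice are past the line, and the 9 members in HDAC4 3SA mice all lie between 0.31 and 0.45.

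Other genes of the same cells were read from lists of B cell, plasma cell and immunoglobulin genes, with the genes that the rule for naming selected or that were chosen after their values were seen. Of 17 further B cell genes measured, 10 were at least 2-fold higher in HDAC4 wt than in LacZ saline mice (median log2 ratio 1.33), and 6 were at least 2-fold higher with HDAC4 3SA (0.87). Their levels fell into different kinds. Fcrla, a B cell Fc receptor-like gene, was at 0.0490 FPKM in LacZ saline and 2.53 in HDAC4 wt saline. Cd22, an inhibitory co-receptor, was at 0.209 and 5.18 FPKM. Genes of mature, resting B cells differed little, with Pax5, a B cell identity factor, at 0.298 and 0.420 FPKM and Fcer2a, the low-affinity IgE receptor, at 0.390 and 0.320 FPKM. Of the precursor B cell genes, Dntt was at 0.462 and 1.06 FPKM and Rag1, from a locus of 601 bases, at 0.331 and 0.110 FPKM, and 4 others of that list were not analysed here.

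Of 12 further plasma cell genes, 6 were at least 2-fold higher with HDAC4 wt and 5 with HDAC4 3SA than with LacZ under saline (medians 0.95 and 0.60). Slamf7, a surface receptor found on plasma cells, was at 0.0731 FPKM in LacZ saline, 7.28 in HDAC4 wt saline and 4.49 in HDAC4 3SA saline. Irf4, a factor needed for plasma cell formation, was at 0.144, 2.60 and 1.45 FPKM, and Prdm1, which drives the same step, at 0.143, 1.30 and 0.877 FPKM. Sdc1, the plasma cell surface proteoglycan, was at 1.22, 7.17 and 5.06 FPKM. The genes of this list that LacZ tissue held at over 5 FPKM (Txndc5, Sec11c and Ell2) had log2 ratios of 0.22 to 0.46. Within the vectors 0 of the 12 passed 2-fold with CFA.

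The immunoglobulin constant genes had the largest medians of the lists. All 10 with a mean of at least 0.1 FPKM were at least 2-fold higher in both HDAC4 saline groups than with LacZ, with medians of 5.85 and 5.43. Igkc was at 0.117 FPKM in LacZ saline, 419 in HDAC4 wt saline and 283 in HDAC4 3SA saline, and Igha, the heavy chain of the J chain-bound IgA, at 0.0513, 269 and 120 FPKM. Ighm, the heavy chain of IgM, was already at 5.22 FPKM in LacZ saline and was at 77.0 and 35.7 FPKM in the HDAC4 saline groups. These genes share sequence with one another, and how the authors' counting split such reads is uncertain. Of all loci, 47 were at 10 FPKM or more in each HDAC4 group and at least 100-fold above both LacZ groups, of which 37 were immunoglobulin loci and Jchain and Mzb1 were another 2. None met the reverse rule. A further count, of loci listed at 0 in both LacZ groups and at 1 FPKM or more in all 4 HDAC4 groups, gave 44, of which 25 were immunoglobulin loci and 26 were shorter than 500 bases, against 0 for the reverse.

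Genes of the general endoplasmic reticulum stress and folding response, in which Xbp1 and Derl3 also take part, were higher with each HDAC4 vector than with LacZ under saline in 16 of 17, by small ratios. Of these, 1 was at least 2-fold higher in HDAC4 wt than in LacZ saline mice and 1 in HDAC4 3SA, in both cases Edem1, which takes misfolded glycoproteins to degradation (3.58, 9.20 and 7.31 FPKM). The median log2 ratios were 0.21 and 0.19. Sdf2l1, a chaperone cofactor of the compartment, was at 9.36, 18.5 and 16.3 FPKM in LacZ, HDAC4 wt and HDAC4 3SA saline mice, and Creld2, a stress-induced gene of the same compartment, at 9.44, 17.7 and 16.2 FPKM. Ddit3, a transcription factor of the stress response, was at 26.1, 41.5 and 39.1 FPKM. The log2 ratios of Xbp1 (0.84 and 0.53) lay within the range of this list, and those of Jchain, Mzb1 and Derl3 above it. Hspa5, the main chaperone of the compartment, was at 80.9, 90.4 and 92.4 FPKM in the 3 saline groups, and Sel1l, a component of the degradation complex, at 37.7, 37.0 and 37.7 FPKM.

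**Figure D5:**
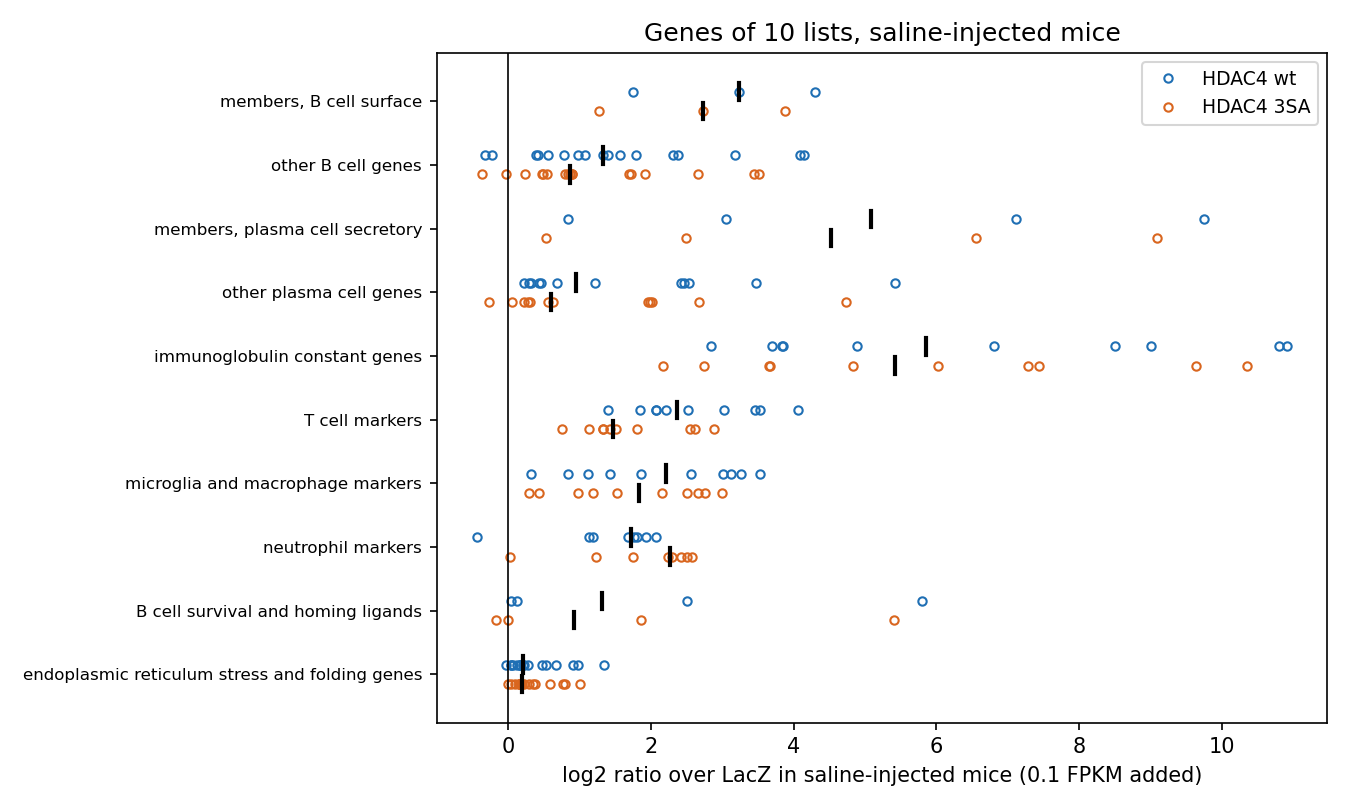
Log2 ratio to LacZ in saline-injected mice for the genes of 10 lists with a mean of at least 0.1 FPKM, 0.1 FPKM added. Each circle is 1 gene, blue for HDAC4 wt and orange for HDAC4 3SA, and black bars are medians. Immunoglobulin constant genes (medians 5.85 and 5.43) and secretory members (5.09 and 4.52) lie furthest right, and folding genes (0.21 and 0.19) near 0.

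Markers of other cell types moved with the same contrast between vectors under saline, and their part in the members' values was not tested. In HDAC4 wt saline mice, 10 of 10 T cell markers were at least 2-fold higher than in LacZ saline mice (median 2.37), and their summed level was 3.22 FPKM in LacZ saline, 19.3 in HDAC4 wt saline and 10.2 in HDAC4 3SA saline. For microglia and macrophages 8 of 10 were at least 2-fold higher (median 2.21), with sums of 125, 798 and 585 FPKM. For neutrophils 7 of 8 were at least 2-fold higher (1.72), with sums of 11.2, 41.7 and 62.1 FPKM. Neutrophil markers, unlike the members, were higher with HDAC4 3SA than with HDAC4 wt in 8 of 8. Under CFA they ran the other way from the members, since 8 of 8 were at least 2-fold below the LacZ level with HDAC4 wt (median -1.86) and 6 of 8 with HDAC4 3SA (-1.59). The summed level under CFA was 113 FPKM with LacZ, 28.8 FPKM with wild-type HDAC4 and 38.9 FPKM with the 3SA mutant. Cd22, Blnk, Btk and Cd37, which are also known from myeloid cells, were among the B cell list's genes past 2-fold. The plasmacytoid dendritic cell list had 2 of 4 at least 2-fold higher, with Bst2, an interferon-induced gene, at 2.83, 41.4 and 31.7 FPKM and Siglech at 3.81, 5.50 and 6.08 FPKM. Leptomeningeal markers had 0 of 5 past 2-fold in either vector (medians 0.51 and 0.36), red blood cell markers 1 of 3 and bone marrow precursor markers 1 of 6 with HDAC4 wt.

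Of the ligands that attract or sustain B cells, Cxcl13 differed most between vectors among the 4 measured. Cxcl13, the chemokine of B cell follicles, was at 0.00565 FPKM in LacZ saline, 0.0338 in LacZ CFA, 5.77 in HDAC4 wt saline, 7.43 in HDAC4 wt CFA, 4.40 in HDAC4 3SA saline and 10.8 in HDAC4 3SA CFA. Tnfsf13b, which encodes the B cell survival factor BAFF, lay between 2.21 and 2.66 FPKM in all 6 groups, and Cxcl12, a chemokine that retains plasma cells in bone marrow, between 14.5 and 16.9 FPKM. Cd40lg, the T cell ligand for CD40, was listed at 0 in LacZ saline and was between 0.0727 and 0.472 FPKM elsewhere.

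After CFA, the small differences of the members had company in other lists. In LacZ mice, 3 of the 17 further B cell genes passed 2-fold and 17 of 17 were higher, namely Ighd (0.260 to 0.710 FPKM), Blk (0.0429 to 0.204 FPKM) and Fcrla (0.0490 to 0.205 FPKM), while 6 of 12 further plasma cell genes were higher and 6 lower. In the same mice 8 of 8 neutrophil markers passed 2-fold, with a summed level of 11.2 FPKM in saline and 113 in CFA. Bone marrow precursor markers had 2 of 6 past 2-fold (Elane and Ctsg), red blood cell markers 1 of 3 (Slc4a1) and leptomeningeal markers 1 of 5 (Ptgds), and 10 of 10 T cell markers were higher with 0 past 2-fold. Whether these shifts and those of Cd79a and Cd79b belong together was not tested. In HDAC4 wt mice 0 of 17 B cell genes and 0 of 10 T cell markers passed 2-fold. Neutrophil markers were lower with CFA in 7 of 8 in those mice, 3 of them past 2-fold, and in 6 of 8 in HDAC4 3SA mice, 1 of them past 2-fold. In HDAC4 3SA mice, 3 of 17 B cell genes (Cd22, Blnk and Cd37), 4 of 10 T cell markers and 3 of 10 microglia and macrophage markers were at least 2-fold higher with CFA, and the T cell median was 0.97 while the members' median was 0.36.

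The profile of the secretory members over the 6 groups was also compared with that of every other gene at 1 FPKM or more on average, as a correlation of log2 values across 6 points. The points share the difference between tables, which sets most of each value. Of 14235 genes, 1457 had r of at least 0.95, of which 36 of 154 were immunoglobulin genes, and 100 had r of at least 0.99, of which 11 were. The most alike genes outside the immunoglobulins were Ly6f, Gm10101, Oosp1, Lax1 and Prorsd1 (r of 0.999 to 0.998). Ly6f and Gm10101 come from loci of 280 and 306 bases, and Ly6f was listed at 0 in both LacZ groups. Lax1, a lymphocyte adaptor that restrains receptor signalling, was at 0.0919 and 0.107 FPKM with LacZ and at 1.72 to 2.74 FPKM with HDAC4. Of the members outside the secretory set, Pou2af1 had r = 0.998, Tnfrsf17 0.980, Cd79a 0.973, Cd79b 0.971 and Ms4a1 0.943.

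The tissue and the vector were read from their own genes. Snap25, a neuronal synaptic gene, was at 646 to 1227 FPKM in the 6 groups, lower in each HDAC4 group than in the LacZ groups, and the astrocyte gene Gfap was at 389 and 415 FPKM with LacZ and at 805 to 1094 FPKM with HDAC4. Hdac4 was at 7.41 and 7.72 FPKM in the LacZ groups, 10.1 and 10.8 with HDAC4 wt and 8.86 and 8.81 with HDAC4 3SA, and whether reads of the transgene count towards this locus is not given in the sources used here. The tables do not give the depth of each library, and the methods state only a minimum number of reads per sample.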

How the data were processed

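Poly(A) RNA of 18 mice was sequenced by the authors as strand-specific single-end reads of 50 bases, aligned to mm10 with TopHat and Bowtie and quantified with Cufflinks and Cuffdiff using Ensembl annotation. The deposited tables, 1 per vector, hold an FPKM value of each group over 3 mice for 34579 loci. They also hold the authors' own fold changes, test statistics and p-values, which were not used. The tables give no depth per library (the methods state only a minimum number of reads per sample). They give no value per mouse and no error, so no count test was run here.

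Loci were joined by identifier, and 386 whose place or gene name differed between tables were dropped. Locus starts count from 0 and were printed plus 1. For each gene the row with the highest mean FPKM was taken. Ratios are of the deposited values. Log2 ratios were computed with 0.1 FPKM added, which understates differences of low genes, and "at least 2-fold" means a log2 ratio of 1 or more, or -1 or less. Shares of all loci are over 33972 loci with a mean of at least 0.1 FPKM. Work was done in Python with pandas and numpy, and the fold rule was tested on simulated data. Alternatives were the added FPKM, the minimum level, the fold, centring on loci above 5 FPKM and summing rows of a name.

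The members and the 14 gene lists were chosen with earlier results of these data known. Up to 4 genes per list with the largest log2 ratio by CFA in any vector were named. The 5 genes outside the members and immunoglobulins most like the secretory profile, and Hdac4, were also named. Further genes were named after their values were seen. Some list genes are not reported here. Of 134 list genes 117 were found, and the others were not analysed here. Promoters came from RefSeq (GRCm38.p6), and 6 of 9 members matched.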

Additional observations from a re-analysis of the deposited data

Results flagged for a closer look

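The values here stood out because the group values of 2 vectors moved past 2-fold in opposite directions with CFA. Each is 1 value per group, and the difference between vectors was not tested.

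Among the immunoglobulin constant genes, which accompany Jchain in level, Ighg3 had a log2 ratio of CFA to saline of 2.46 in HDAC4 wt mice (29.2 to 161 FPKM) and of -1.52 in HDAC4 3SA mice (45.3 to 15.8 FPKM). Iglc2 went the other way, with -2.36 in HDAC4 wt mice (118 to 22.9 FPKM) and 1.66 in HDAC4 3SA mice (14.8 to 47.0 FPKM). Over the same groups Jchain had log2 ratios of 0.10 and 0.45.

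Among neutrophil markers, Ngp had 3.41 in LacZ mice and -1.27 in HDAC4 3SA mice, and Camp had 2.98 in LacZ mice and -1.46 in HDAC4 wt mice. Among bone marrow precursor markers, Elane had 2.03 in LacZ mice and -1.09 in HDAC4 wt mice, and Ctsg had 2.99 in LacZ mice and -1.08 in HDAC4 wt mice, with Ctsg listed at 0 in LacZ saline and HDAC4 wt CFA.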

How the results depend on the processing

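No paired analysis was possible because the tables hold 1 value per group and none per mouse, and for the same reason no replicate could be left out and no replicate block could be fitted. No value changed direction past 2-fold under any alternative run. Centring on loci above 5 FPKM, summing the rows of a name and leaving Xbp1 out of the secretory genes (the last chosen after seeing the data) kept every set median and every count of members on its side of 2-fold or within 1.5 times, except that without Xbp1 some secretory medians moved further in size, to 7.12 from 5.09 for HDAC4 wt against LacZ under saline.

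The FPKM added before the log mattered for low genes. With 1 FPKM added, the surface median in LacZ mice after CFA was 0.52 in place of 1.16, and the members at least 2-fold higher numbered 0 in place of 2. The list genes past 2-fold with CFA numbered 17 with the LacZ vector, 8 with wild-type HDAC4 and 16 with the 3SA mutant, and 7, 3 and 9 with 1 FPKM added, and 30 in LacZ mice with 0.01 FPKM added.

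Counts of all loci past 2-fold, the background of the members' counts, followed the settings. In order, for CFA against saline for mice with LacZ, HDAC4 wt and HDAC4 3SA, for HDAC4 wt against LacZ, HDAC4 3SA against LacZ and HDAC4 3SA against HDAC4 wt under saline, and for these 3 under CFA, they were 1257, 1920, 2169, 4470, 3913, 1693, 3583, 4740 and 2216. With a mean of at least 1 FPKM they were 431, 716, 767, 1920, 1701, 616, 1617, 2026 and 780. With 1 FPKM added they were 228, 489, 587, 1407, 1137, 466, 1339, 1610 and 578. At 1.5-fold they were 3962, 6072, 5858, 10003, 9116, 4623, 7834, 10474 and 6432, and at 3-fold 329, 575, 685, 1828, 1473, 595, 1768, 2109 and 687. With 0.01 FPKM added they were 2567, 3388, 3500, 6420, 5894, 2849, 5023, 6665 and 3696.

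The limits are those of 1 value per group, with no error and no read counts in the tables and no test run here. The authors' own tests of CFA against saline within each vector were not used. No counting error is known for the low LacZ levels behind the largest ratios. Vector and table cannot be told apart.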
